A study of Mus musculus with 20 samples.

Results

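The state reached after 1 day of IKZF1 induction was described by comparing 4 of the 20 chromatin-associated RNA-seq libraries of a time course, the 2 libraries taken 24 h after 4-hydroxytamoxifen (4-OHT) and the 2 uninduced libraries (0 h). The cells were B3, a mouse pre-B cell line that came from a lymphoma, transduced with a retrovirus for Ikaros-ERt2, in which IKZF1 is fused to a ligand-binding domain of the estrogen receptor, and sorted for GFP. All 4 libraries carried this construct. The 0 h libraries had no treatment, and those at 24 h received 500 nM 4-OHT, which lets the fusion protein enter the nucleus. A 24 h sample without 4-OHT, or with 4-OHT and no receptor, was not analysed here, so IKZF1, the ligand and a day in culture cannot be told apart in what follows. The libraries taken at 21 h, 2 in number, served to show what was still moving at the end.

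Large pre-B cells divide quickly under signals from the interleukin-7 receptor and the pre-B cell receptor (pre-BCR), a receptor made of an immunoglobulin heavy chain and the surrogate light chain proteins encoded by Igll1 and Vpreb1. They then leave the cell cycle, become small pre-B cells and rearrange their light-chain genes. IKZF1, known as Ikaros, is a zinc finger transcription factor that B lymphopoiesis needs. RNA bound to chromatin is enriched for transcripts still being made, so its level follows transcription more closely than the level of mature mRNA does.

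Total counts were 44116303 and 42508165 at 0 h and 38056792 and 42354512 at 24 h, within the range of 33296158 to 46868954 over the series. Levels are given as CPM, counts scaled to a common library size by the library total and its TMM factor, and a fold change is the 24 h level relative to 0 h on the log2 scale with its standard error (SE). Such a level does not tell less RNA per cell from fewer cells that make it. The labels do not say whether the libraries of a time point came from separate cultures, so p-values measure the spread between these samples, which may be technical. For the 0 h samples, the descriptions number the replicates otherwise than the count columns do, so these may be repeat libraries of a single culture. They were assigned by the replicate number in their titles. Mitochondrially encoded RNA took 0.144% and 0.150% of counts at 0 h and 0.966% and 1.02% at 24 h, and its part in the results below was not tested.

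The count table has a limit that touches genes central to pre-B cells. Of the 1253 protein-coding genes that lie wholly inside other genes, 1225 were listed at 0 in all 20 libraries, as were 695 of the 700 that lie inside genes of the opposite strand only. The share was 18.4% among the 11829 protein-coding genes with no overlap. The recombinase genes Rag1 and Rag2, the kappa constant region Igkc and the B cell surface gene Ms4a1 lie wholly inside other annotated genes and were listed at 0, which says nothing about their expression, and they are not considered further.

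The B lineage label held at both times. Cd79a, a signalling chain of the B cell receptor, stood at 32.2 and 32.0 CPM at 0 h and 72.9 and 67.0 CPM at 24 h. Markers of other blood lineages were mostly low, apart from Cd28 and Klrd1. The summed level of 14 myeloid markers was 6.18 and 5.18 CPM at 0 h and 1.61 and 1.82 CPM at 24 h, and that of 12 erythroid and megakaryocyte markers 3.35 and 3.08 CPM at 0 h and 3.40 and 3.07 CPM at 24 h. Among 14 T cell markers the sum was 133 CPM in both libraries at 0 h and 112 and 106 CPM at 24 h, most of it from Cd28, while the defining receptor chain Cd3e had 0 counts in each library. The 9 NK cell markers had a summed level of 3.50 and 2.84 CPM at 0 h and 57.3 and 63.2 CPM at 24 h, nearly all from the lectin receptor Klrd1, which rose and stood at 2.66 and 2.16 CPM at 0 h and 54.2 and 59.6 CPM at 24 h. All 4 NK markers with enough counts to be tested rose, 100% against 20% of all genes, with log2 fold changes from 1.96 to 6.01. Klrk1, another lectin receptor, was among them, at 0.519 and 0.338 CPM at 0 h and 1.67 and 1.71 CPM at 24 h. The NK genes Eomes and Gzmb had 0 counts in the 4 libraries and Ncr1 had at most 1. Outside the blood lineages, 9 fibroblast and endothelial markers had a summed level of 337 and 339 CPM at 0 h and 397 and 434 CPM at 24 h. Only 1 of the 9 had enough counts to be tested, and it was not called. The part of these markers in the results below was not tested.

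At 24 h, 3329 genes were lower and 3323 were higher than at 0 h among 16601 genes tested, at an adjusted p under 0.01 and a fold change above 2 (edgeR quasi-likelihood test, Benjamini-Hochberg adjustment). These are called genes in what follows, and they made up 20.1% of all genes tested in the downward and 20% in the upward direction, 40.1% in all. Changes above 8-fold were found for 531 falling and 735 rising genes, and changes above 32-fold for 101 and 258. These sizes are fitted values, also for genes with 0 counts at a time point. There were 394 rising genes with at most 3 counts in either 0 h library and 310 falling genes with at most 3 counts in either 24 h library. The split depends on the scaling. With library totals alone the median of all genes moved from -0.01 to -0.27 (log2), and 4260 genes were lower and 2603 higher, so that 37.9% of called genes were higher in place of 49.96%. Changes below are relative to the TMM scaling.

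**Figure D1:**
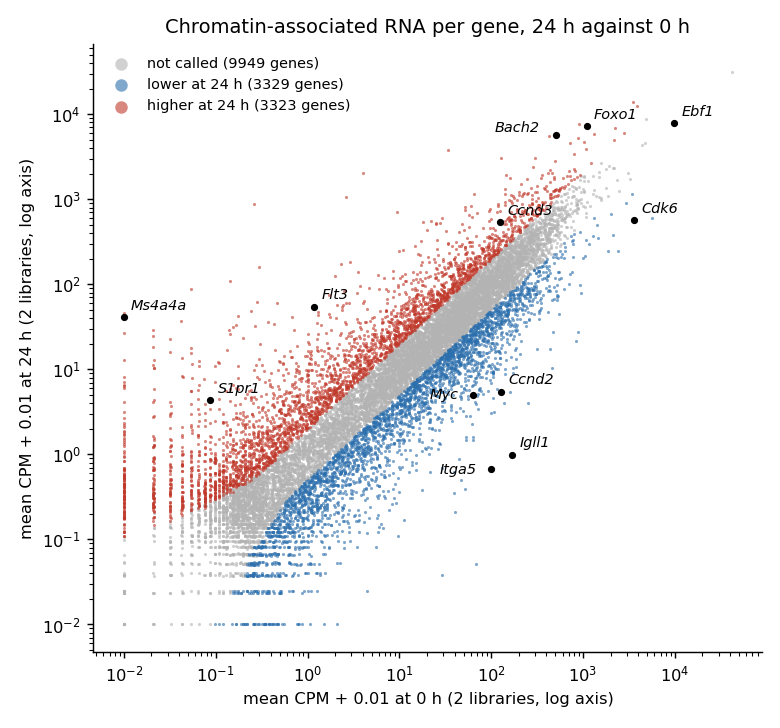
Mean level at 0 h (x axis) against mean level at 24 h (y axis), both in CPM plus 0.01 on log axes, for the 16601 genes tested, with 3329 lower genes in blue, 3323 higher genes in red and genes not called in grey. Igll1, Itga5, Ccnd2 and Myc lie far below the diagonal, Flt3, S1pr1 and Ms4a4a far above it, and Ebf1 close to it.

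The called genes fell unevenly over 35 lists of genes with shared functions, which hold 710 tested genes. In the lists of G1 regulators, DNA replication, mitosis, ribosome biogenesis, nucleotide synthesis and snoRNA hosts, between 75.0% and 89.5% of tested members were lower, against 20.1% of all genes. Rising shares between 47.1% and 57.1%, against 20% of all genes, were found in the lists of CDK inhibitors and quiescence genes, immature and mature B cell markers, MHC class II presentation, interleukin-7 receptor signalling and interferon-stimulated genes. Among the B cell markers, 10 rose, and 6 when at least 10 counts were required in every library. The shares were higher still for immunoglobulin kappa, lambda and heavy-chain J and constant genes and for NK cell markers, lists in which most members had too few counts to be tested. Of the tested members, 17 of 36 kappa and 2 of 2 lambda genes had 0 counts at 0 h and could only rise. The kappa and lambda shares are therefore not read as results. No member of the cholesterol synthesis list was called.

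**Figure D2:**
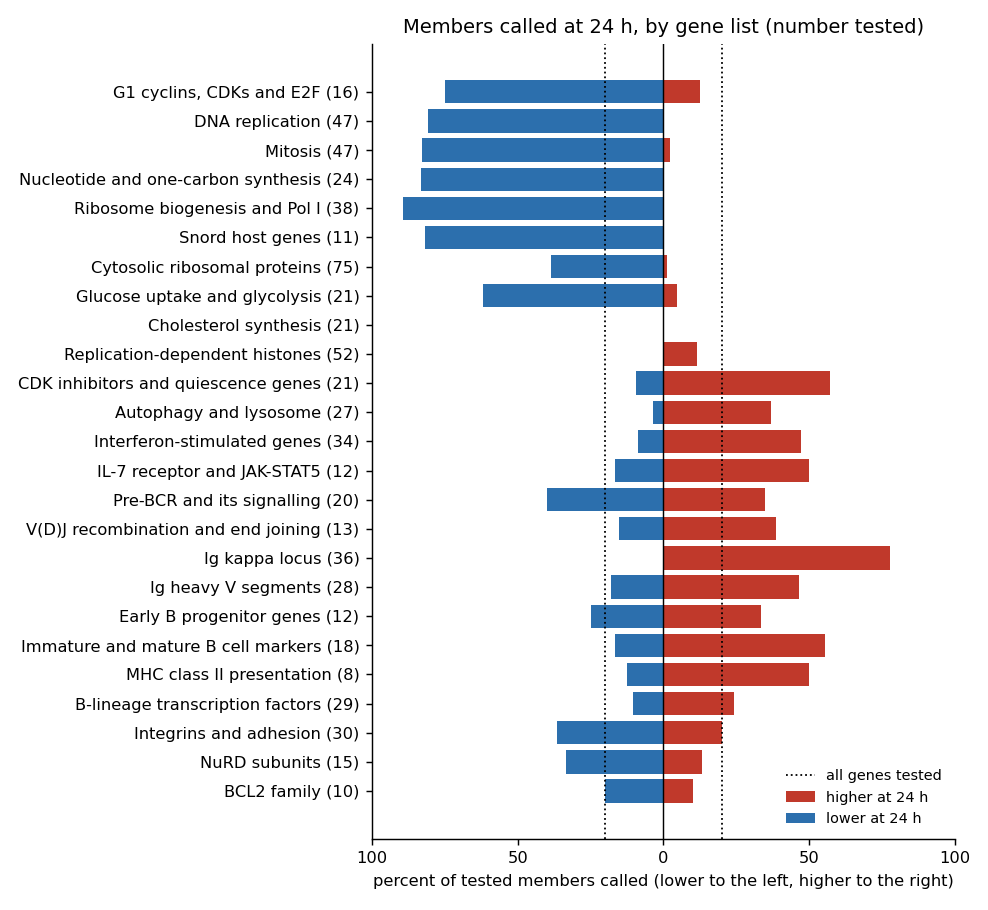
Share of tested members called lower (blue, to the left) or higher (red, to the right) at 24 h in 25 gene lists, with the number tested in parentheses and dotted lines at the shares over all genes, 20.1% and 20%. Most cell division and growth lists extend to the left, while replication-dependent histones extend only to the right. B lineage, quiescence and interferon lists extend mostly to the right, apart from the pre-BCR list, with 40% lower and 35% higher. Of the 36 kappa segments, 17 had 0 counts at 0 h and could only rise.

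Among regulators of the G1 phase, cyclin D2 transcripts fell and cyclin D3 transcripts rose. Of 16 G1 cyclins, CDKs and E2F genes tested, 12 fell and 2 rose, with a median log2 fold change of -1.99. Ccnd2 (GRCm38 chr6:127125162-127152193, minus strand), cyclin D2, which activates CDK4 and CDK6, stood at 126 and 129 CPM at 0 h and 5.31 and 5.59 CPM at 24 h. The libraries of a time point lay close together, and the log2 fold change was -4.55 (SE 0.0960), a 23.4-fold fall. Cdk6, a cyclin D-dependent kinase, stood at 3612 and 3625 CPM at 0 h and 567 and 568 CPM at 24 h, a 6.37-fold fall. Ccne1, cyclin E1, which drives entry into S phase, stood at 17.7 and 17.8 CPM at 0 h and 0.954 and 1.22 CPM at 24 h, a 16.2-fold fall. E2f2, an activator of S phase genes, fell by 3.44-fold. Both rising members work in the same pathway. Ccnd3 (GRCm38 chr17:47505051-47599691, plus strand), cyclin D3, stood at 124 CPM in both libraries at 0 h and 533 and 547 CPM at 24 h, and the log2 fold change was 2.12 (SE 0.0939). Rb1, the retinoblastoma protein that holds E2F factors in check, rose by 2.72-fold.

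Genes of cell cycle arrest and quiescence rose. Of 21 tested, 12 rose and 2 fell, with a median log2 fold change of 1.80. The summed level of all 24 listed was 1801 and 1807 CPM at 0 h and 9198 and 9274 CPM at 24 h. Cdkn1b, the CDK inhibitor p27, stood at 12.6 and 12.7 CPM at 0 h and 73.9 and 68.2 CPM at 24 h, a 5.61-fold rise with no overlap between times. Foxo1 (GRCm38 chr3:52268336-52353221, plus strand), a forkhead factor that PI3K-AKT signalling keeps out of the nucleus, contributed most of the sum, at 1095 and 1096 CPM at 0 h and 7241 and 7295 CPM at 24 h, with a log2 fold change of 2.73 (SE 0.0420). Ccng2, a cyclin of non-dividing cells, rose by 9.54-fold and the zinc finger gene Klf6 by 7.78-fold. Btg2, an antiproliferative gene, rose by 6.86-fold but was low, at 0.216 and 0.180 CPM at 0 h and 1.52 and 1.25 CPM at 24 h. The falling members were Cdkn1a, the p53-responsive inhibitor p21, at 12.0 and 11.3 CPM at 0 h and 2.09 and 2.39 CPM at 24 h, and Tsc22d3, a glucocorticoid-induced gene, with a log2 fold change of -1.28 (SE 0.0878). Cdkn2d, the inhibitor p19, stood at 1.92 and 1.80 CPM at 0 h and 2.18 and 2.52 CPM at 24 h and was not called (adjusted p = 0.0786). Klf2, a factor of resting lymphocytes, had 21 and 8 counts at 0 h and 13 and 16 counts at 24 h and was not called.

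Genes of DNA replication fell widely. Of 47 tested, 38 fell and 0 rose, with a median log2 fold change of -2.26. Tyms, thymidylate synthase, stood at 135 and 141 CPM at 0 h and 3.94 and 4.18 CPM at 24 h and had the deepest fall of the list, with a log2 fold change of -5.09 (SE 0.0748), or 34.0-fold. Uhrf1, which brings maintenance DNA methylation to new strands, fell by 13.7-fold. Mcm5, a subunit of the replicative helicase, stood at 187 and 185 CPM at 0 h and 27.2 and 29.0 CPM at 24 h, a fall of 6.62-fold. The levels at 24 h were lower but not absent, since Mcm5 still had over 900 counts in each library.

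Genes of mitosis fell in similar number but less deeply at the median. Of 47 tested, 39 fell and 1 rose, with a median log2 fold change of -1.67. Mybl2, a transcription factor of the G2/M program, stood at 174 and 169 CPM at 0 h and 10.8 and 10.0 CPM at 24 h, and the log2 fold change was -4.04 (SE 0.0781). Birc5, survivin, fell by 7.41-fold, and Ccnb1, cyclin B1, stood at 74.1 and 71.8 CPM at 0 h and 16.2 and 14.4 CPM at 24 h, a 4.78-fold fall. Mki67, the proliferation antigen Ki-67, stood at 609 and 627 CPM at 0 h and 208 and 195 CPM at 24 h and fell by 3.06-fold. The rising member was Cdc25b, a phosphatase that activates CDK1, at 15.9 CPM in both libraries at 0 h and 33.9 and 32.5 CPM at 24 h, with a log2 fold change of 1.06 (SE 0.0736), which is not past the 2-fold limit with library totals alone.

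Promoters of cell cycle genes are shown because genes of these lists are known to share E2F sites (S phase) and the cell cycle homology region, CHR (G2/M). RefSeq promoter windows of 300 bases, from 250 before to 50 after the start, were found for 11244 of the 16601 genes tested (GRCm38.p6), and each was searched on both strands. The CHR letters TTTGAA or TTCGAA were in 76.9% of 39 windows of the mitosis list, 18.4% of 38 windows of the DNA replication list and 14.8% of all windows. For matches within 50 bases of the start on either side, the shares were 69.2%, 5.26% and 3.79%. The E2F letters TTTCCCGC, TTTGGCGC, TTTCGCGC or TTTGCCGC were in 31.6% of DNA replication windows, 2.56% of mitosis windows and 3.74% of all windows. CCAAT was in 74.4% of mitosis, 68.4% of DNA replication and 38.8% of all windows. Over all called genes the shares differed less. E2F letters were in 5.25% of falling and 2.24% of rising genes and CHR letters in 17.8% and 14.4%. The IKZF1 core TGGGAA was in 25.7% of falling, 22.5% of rising and 23.3% of genes not called, and the E-box CACGTG in 10.8%, 8.15% and 9.50%. These 2 motifs differed more between lists. The IKZF1 core was in 39.5% of DNA replication, 17.95% of mitosis and 28.1% of 32 ribosome biogenesis windows, against 23.65% of all windows. E-box shares were 15.8%, 10.3% and 31.25% in the same lists and 9.51% of all windows. A short motif may overlap another, and a match is not evidence of binding.

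Stretches that end at the base before the start are printed 5′ to 3′ on the gene's strand, with E2F letters in capitals for Mcm5 (chr8:75109349-75109508, plus strand), Mcm6 (chr1:128359706-128359825, minus strand) and Orc1 (chr4:108579394-108579453, plus strand), and CHR letters in capitals for Cdk1 (chr10:69352913-69352992, minus strand), Mki67 (chr7:135716380-135716499, minus strand), Cdc20 (chr4:118437344-118437403, minus strand) and Ube2c (chr2:164769869-164769928, plus strand). Matches on either strand are capitalised, those on the opposite strand as their reverse complement, and overlapping matches form a single run. The genes were picked after the values were seen because their matches lie before the start.
Mcm5: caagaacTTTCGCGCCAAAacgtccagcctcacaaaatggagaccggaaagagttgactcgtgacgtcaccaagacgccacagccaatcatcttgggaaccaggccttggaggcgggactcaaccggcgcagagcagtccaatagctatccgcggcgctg
Mcm6: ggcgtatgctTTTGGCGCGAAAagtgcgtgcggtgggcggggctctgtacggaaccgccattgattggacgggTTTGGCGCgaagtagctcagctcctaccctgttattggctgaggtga
Orc1: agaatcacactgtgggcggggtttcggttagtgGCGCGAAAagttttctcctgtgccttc
Cdk1: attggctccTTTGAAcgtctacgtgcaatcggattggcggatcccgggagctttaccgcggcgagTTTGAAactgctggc
Mki67: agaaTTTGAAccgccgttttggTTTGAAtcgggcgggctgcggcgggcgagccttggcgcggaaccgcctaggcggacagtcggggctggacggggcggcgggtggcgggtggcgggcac
Cdc20: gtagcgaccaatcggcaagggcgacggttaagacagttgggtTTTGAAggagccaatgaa
Ube2c: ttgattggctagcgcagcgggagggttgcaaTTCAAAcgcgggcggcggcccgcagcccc
The helicase gene Mcm6, with E2F letters 110 and 47 bases before its start, stood at 155 and 152 CPM at 0 h and 37.9 and 37.6 CPM at 24 h, and the log2 fold change was -2.02 (SE 0.0528). Orc1, which encodes the largest subunit of the origin recognition complex, has a match 27 bases before its start and was not lower at 24 h. It stood at 37.5 and 34.5 CPM at 0 h and 63.8 and 61.4 CPM at 24 h and was not called. Cdk1, the kinase of mitotic entry, has CHR letters 71 and 15 bases before its start and fell by 5.73-fold. Cdc20 and Ube2c, which act in the ubiquitination that ends mitosis, have matches 18 and 29 bases before theirs and fell by 2.54-fold and 2.76-fold.

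**Figure D3:**
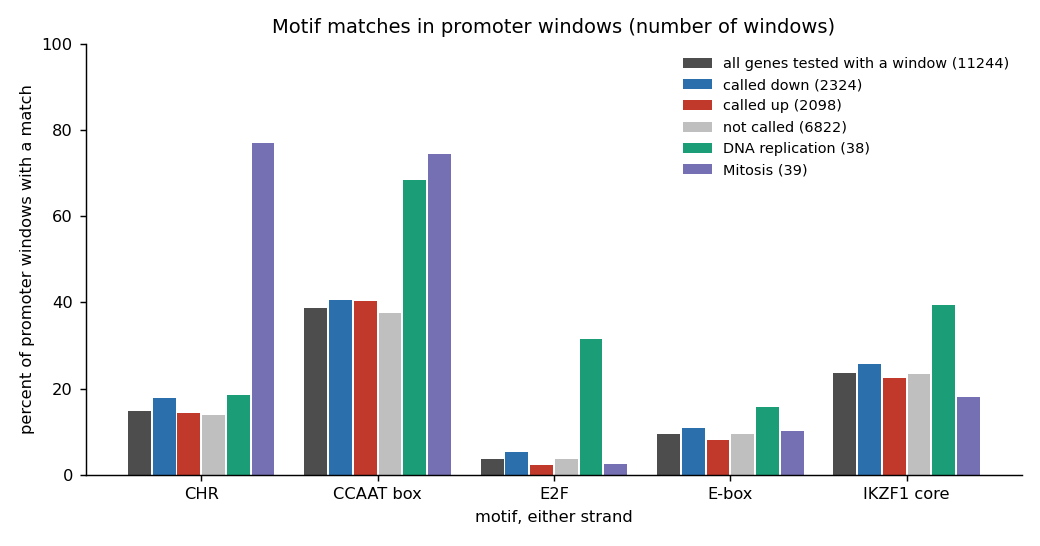
Percent of promoter windows with a match on either strand (y axis) for 5 motifs (x axis) in all windows, in falling, rising and uncalled genes and in 2 gene lists, with the number of windows in parentheses. CHR letters stand out in the mitosis list at 76.9% against 14.8% of all windows, and E2F letters in the DNA replication list at 31.6% against 3.74%.

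Histone genes, which are made in S phase, did not fall. Of 52 replication-dependent histone genes tested, 0 fell and 6 rose, with a median log2 fold change of 0.06. The rising share was 11.5%, against 20% of all genes, and 20.1% of all genes fell. The summed level of all 66 listed was 455 and 441 CPM at 0 h and 577 and 539 CPM at 24 h. Hist1h1c, a linker histone, stood at 22.1 CPM in both libraries at 0 h and 59.4 and 56.2 CPM at 24 h and Hist2h2be, an H2B gene, at 3.39 and 3.27 CPM at 0 h and 14.0 and 11.8 CPM at 24 h. Histone genes are near copies of each other, so reads may be split between them and single-gene values are uncertain. With library totals alone 2 histone genes fell.

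**Figure D4:**
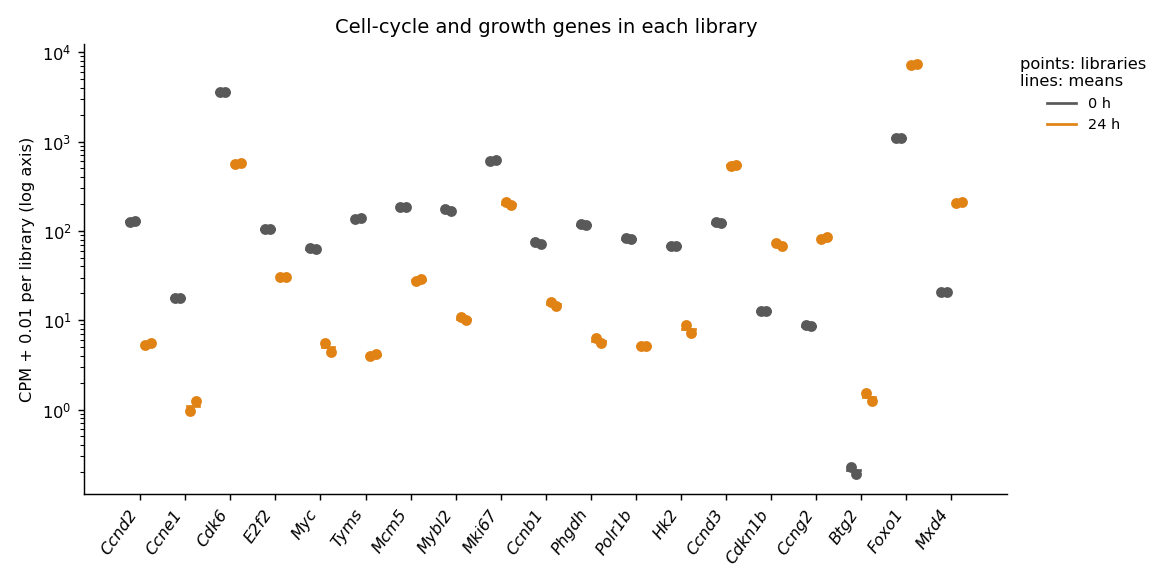
Level of 19 cell cycle and growth genes in each library, in CPM plus 0.01 on a log axis, with 0 h in grey and 24 h in orange and lines at the means. The libraries of a time point lie close together for each gene, genes from Ccnd2 to Hk2 are lower at 24 h, and genes from Ccnd3 to Mxd4 are higher.

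Myc fell, while the MYC network as a list did not stand apart. Of 9 members tested, 2 fell and 2 rose, 22.2% each, against 20.1% and 20% of all genes. Myc itself, a factor that promotes growth, stood at 63.6 and 62.2 CPM at 0 h and 5.55 and 4.40 CPM at 24 h, and the log2 fold change was -3.67 (SE 0.116), or 12.7-fold lower. Mxd4, which competes with MYC for its partner MAX, stood at 20.9 and 20.4 CPM at 0 h and 206 and 208 CPM at 24 h, a 10.0-fold rise, and Mxi1, of the same family, rose by 7.71-fold. Mxd3, a family member known from S phase, fell by 2.48-fold.

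Genes for making ribosomes fell more widely than any other list of 20 or more tested genes. Of 38 genes of ribosome biogenesis and RNA polymerase I, 34 fell and 0 rose, with a median log2 fold change of -2.32. Polr1b, a core subunit of RNA polymerase I, stood at 83.1 and 80.4 CPM at 0 h and 5.13 and 5.10 CPM at 24 h, a 16.0-fold fall, and Nolc1, a nucleolar chaperone, fell by 12.3-fold. Host genes of small nucleolar RNAs, whose introns carry the guides for ribosomal RNA modification, fell in 9 of 11 cases and rose in 0. Snhg12 stood at 46.5 and 45.7 CPM at 0 h and 3.52 and 3.53 CPM at 24 h and Snhg1 at 118 and 117 CPM at 0 h and 9.54 and 10.6 CPM at 24 h. The genes for the ribosomal proteins themselves moved less. Of 75 tested, 29 fell and 1 rose, 38.7% and 1.33% against 20.1% and 20% of all genes, with a median log2 fold change of -0.63. Rpl3 stood at 185 and 181 CPM at 0 h and 44.4 and 44.0 CPM at 24 h and Rpl10a fell by 3.65-fold. The 1 that rose was Rpl3l, a paralogue known from striated muscle, at 0.929 and 1.01 CPM at 0 h and 4.41 and 4.91 CPM at 24 h.

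Genes of nucleotide supply also fell. Of 24 genes of nucleotide and one-carbon synthesis, 20 fell and 0 rose, with a median log2 fold change of -2.57. Phgdh, the first enzyme of serine synthesis, stood at 118 and 115 CPM at 0 h and 6.23 and 5.51 CPM at 24 h, with a log2 fold change of -4.31 (SE 0.0646), and Ctps, which makes CTP, fell by 12.8-fold. Of 21 genes of glucose uptake and glycolysis, 13 fell and 1 rose, with a median log2 fold change of -1.14. These shares were 61.9% and 4.76%, against 20.1% and 20% of all genes. Hk2, a hexokinase, stood at 68.1 and 67.8 CPM at 0 h and 8.83 and 7.11 CPM at 24 h, an 8.56-fold fall, and Ldha, lactate dehydrogenase A, fell by 4.71-fold. The glucose transporter gene Slc2a1 stood at 22.8 and 23.2 CPM at 0 h and 15.7 and 16.8 CPM at 24 h, and the log2 fold change was -0.50 (SE 0.0669), under the 2-fold limit. Slc16a1, a lactate and pyruvate transporter, rose by 4.32-fold. In contrast to these lists, the 21 cholesterol synthesis genes had a median log2 fold change of -0.01, with 0 called and a range from -0.91 to 0.75, and 2 of them fell with library totals alone.

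Components of the pre-BCR moved in opposite directions. Of 20 genes of the receptor and its signalling, 8 fell and 7 rose, 40% and 35% against 20.1% and 20% of all genes. Igll1 (GRCm38 chr16:16860671-16863985, minus strand), the lambda5 surrogate light chain, stood at 167 and 170.1 CPM at 0 h and 1.07 and 0.896 CPM at 24 h, and the log2 fold change was -7.42 (SE 0.0973), or 171-fold lower, with 36 and 33 counts left at 24 h. Vpreb1, its partner, stood at 18.3 and 16.8 CPM at 0 h and 0.388 and 0.353 CPM at 24 h, a 47.2-fold fall. Plcg2, a phospholipase downstream of the receptor, was picked for plotting after its values were seen and stood at 1298 and 1285 CPM at 0 h and 374 and 368 CPM at 24 h, a 3.48-fold fall. The adaptor Blnk, which links the receptor to calcium signalling and limits pre-B cell growth, stood at 25.2 and 24.9 CPM at 0 h and 528 and 496 CPM at 24 h, a 20.4-fold rise. Syk, the kinase that relays the receptor signal, rose by 5.84-fold. Cd79b, a signalling chain, stood at 15.0 and 16.1 CPM at 0 h and 78.5 and 73.3 CPM at 24 h, a 4.88-fold rise, and Cd79a rose by 2.18-fold. With library totals alone, 4 rather than 7 members rose.

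Transcripts from the kappa locus had a higher summed level at 24 h, although each segment stayed low. Of 106 kappa segments, 36 had enough counts to be tested. The summed level of all 106 was 16.7 and 16.9 CPM at 0 h and 64.8 and 67.6 CPM at 24 h. The 28 that rose are not read as a share of the locus, because 17 of the 36 had 0 counts in both 0 h libraries, passed the filter only through other libraries and could only rise. With at least 10 counts required in every library, 2 segments rose. Of the 3 segments with more than 50 counts at 0 h, picked after their values were seen, Igkv1-110 had 94 and 85 counts at 0 h and 459 and 489 counts at 24 h and Igkv14-111 had 103 and 86 counts at 0 h and 390 and 425 counts at 24 h, and both rose. The other, Igkv4-71, had 465 and 485 counts at 0 h and 355 and 445 counts at 24 h and was not called. Igkv2-109 had 0 counts in both 0 h libraries and 223 and 275 at 24 h, at least 107-fold higher against a floor of 3 counts per library. Igkv1-135 went from 0 to 198 and 258 counts, at least 97.5-fold higher. The lambda constant gene Iglc2 had 0 counts at 0 h and 241 and 203 at 24 h, at least 95.9-fold higher. V segments are near copies of each other, so the assignment to single segments is uncertain, and these counts do not tell germline from rearranged segments.

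The heavy-chain locus was mixed. Of 28 heavy-chain V segments tested, 13 rose and 5 fell, 46.4% and 17.9% against 20% and 20.1% of all genes. Among the 28, 4 had 0 counts at 1 of the times. Ighv1-15 stood at 12.5 and 11.2 CPM at 0 h and 52.6 and 49.4 CPM at 24 h and rose by 4.30-fold, and Ighv14-3 rose by 4.46-fold. Ighv7-3 went the other way, with 515 and 506 counts at 0 h and 6 and 5 counts at 24 h. Of 7 heavy-chain J and constant genes tested, 6 rose and 0 fell, and Ighj4 stood at 7.95 and 8.08 CPM at 0 h and 40.9 and 37.9 CPM at 24 h, a 4.92-fold rise. The joining gene Ighj3 rose by 3.54-fold.

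Genes of V(D)J recombination and end joining, apart from Rag1 and Rag2, rose in 5 and fell in 2 of 13 cases. These shares were 38.5% and 15.4%, against 20% and 20.1% of all genes. Lig4, the ligase that seals V(D)J joints, stood at 7.56 and 6.42 CPM at 0 h and 42.2 and 41.4 CPM at 24 h, and Polm, a polymerase that acts at light-chain joints, at 5.08 and 5.36 CPM at 0 h and 31.7 and 29.7 CPM at 24 h. Their log2 fold changes were 2.58 (SE 0.106) and 2.56 (SE 0.0950). Xrcc5, which encodes Ku80, fell by 2.31-fold. Hmgb1, a DNA-bending cofactor of the recombinase, fell by 2.03-fold, with 47% of its span overlapped by other genes. It was not called without replicate 1 of 24 h (log2 fold change -0.96) or in a test against a 2-fold change (edgeR adjusted p = 0.348). Dntt, terminal transferase, stood at 6.81 and 5.70 CPM at 0 h and 4.15 and 3.72 CPM at 24 h and was not called. With library totals alone 3 rather than 5 members rose.

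Genes that mark early progenitors did not move together. Of 12 tested, 4 rose and 3 fell, 33.3% and 25% against 20% and 20.1% of all genes. Flt3, a cytokine receptor of lymphoid progenitors, stood at 1.10 and 1.24 CPM at 0 h and 61.9 and 47.3 CPM at 24 h, and the log2 fold change was 5.54 (SE 0.150). Il7r, the interleukin-7 receptor chain, stood at 321 and 326 CPM at 0 h and 1005 and 1057 CPM at 24 h, a 3.19-fold rise. Tal1, a factor of stem and erythroid cells, fell and stood at 6.48 and 5.63 CPM at 0 h and 0.149 and 0.109 CPM at 24 h, and Enpep, known as the BP-1 antigen of pre-B cells, fell by 2.19-fold. Kit, the stem cell factor receptor, had too few counts to be tested, at most 1 in each 0 h and 24 h library.

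Markers of immature and mature B cells rose in 10 and fell in 3 of 18 cases, with a median log2 fold change of 1.22. With at least 10 counts required in every library, 6 rather than 10 rose. The summed level of all 26 listed was nonetheless lower, at 527 and 539 CPM at 0 h and 509.5 and 472 CPM at 24 h. The largest contributors at 0 h, Cd180 and Cd69, were lower at 24 h. S1pr1, a receptor that guides lymphocytes out of tissues, had 3 and 4 counts at 0 h and 152 and 155 counts at 24 h. Il2ra, CD25, a marker of small pre-B cells, stood at 1.94 and 2.12 CPM at 0 h and 42.2 and 39.0 CPM at 24 h, with a log2 fold change of 4.32 (SE 0.0845). Cd22, an inhibitory co-receptor, stood at 8.02 and 7.90 CPM at 0 h and 19.4 and 19.5 CPM at 24 h, a 2.44-fold rise. Cd69, an activation antigen, fell and stood at 118 and 122 CPM at 0 h and 59.2 and 38.0 CPM at 24 h, with 24 h libraries further apart than those at 0 h. Fcer2a, CD23 of mature B cells, fell by 3.03-fold.

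Of 8 MHC class II presentation genes tested, 4 rose and 1 fell. H2-Ob, a chain of the H2-O molecule that restrains peptide loading in B cells, stood at 3.76 and 3.40 CPM at 0 h and 138 and 139 CPM at 24 h, and the log2 fold change was 5.27 (SE 0.0864). It made up most of the rise of the list's summed level, which was 28.8 and 28.0 CPM at 0 h and 198 CPM in both libraries at 24 h. Ctss, cathepsin S, which trims the invariant chain, rose by 3.65-fold. Cd74, the invariant chain, was low and fell, at 1.81 and 1.78 CPM at 0 h and 0.686 and 0.624 CPM at 24 h. Ciita, the class II transactivator, had 11 count in both libraries at 0 h and 10 and 9 counts at 24 h and was not called, with 54% of its span overlapped by other genes. H2-Aa, a classical class II chain, had at most 1 count in each 0 h and 24 h library.

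Among 29 B lineage transcription factors, 7 rose, 3 fell and 19 were not called, 24.1% and 10.3% against 20% and 20.1% of all genes. Bach2 (GRCm38 chr4:32238804-32586108, plus strand), a repressor that favours B cell over plasma cell fate, stood at 505 and 508 CPM at 0 h and 5502 and 5814 CPM at 24 h, and the log2 fold change was 3.48 (SE 0.0489). Ets1 stood at 163 and 159.5 CPM at 0 h and 1802 and 1749 CPM at 24 h, an 11.0-fold rise. Pax5, which sets B cell identity, stood at 1076 and 1073 CPM at 0 h and 3993 and 3901 CPM at 24 h and rose by 3.67-fold. Bcl6, which protects small pre-B cells from the damage response, stood at 21.5 and 21.1 CPM at 0 h and 81.6 and 75.8 CPM at 24 h, a 3.69-fold rise. Ebf1, the factor that specifies the B lineage, stood at 9755 and 9830.5 CPM at 0 h and 7556 and 8119 CPM at 24 h and was not called. Irf4, a factor of light-chain rearrangement and plasma cells, stood at 9.53 and 9.75 CPM at 0 h and 4.92 and 5.86 CPM at 24 h and was not called either, though it passes the 2-fold limit downward with library totals alone. Those that fell most were Gfi1b, a repressor of myeloid and erythroid cells, at 25.8 and 26.7 CPM at 0 h and 2.36 and 3.18 CPM at 24 h, and Bcl11a, at 622 and 623 CPM at 0 h and 87.1 and 90.9 CPM at 24 h, with 29% of its span overlapped. Of 4 plasma cell genes tested, 1 rose, 25% against 20% of all genes. It was Jchain, the joining chain of secreted immunoglobulin, at 0.173 and 0.158 CPM at 0 h and 6.20 and 5.37 CPM at 24 h.

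**Figure D5:**
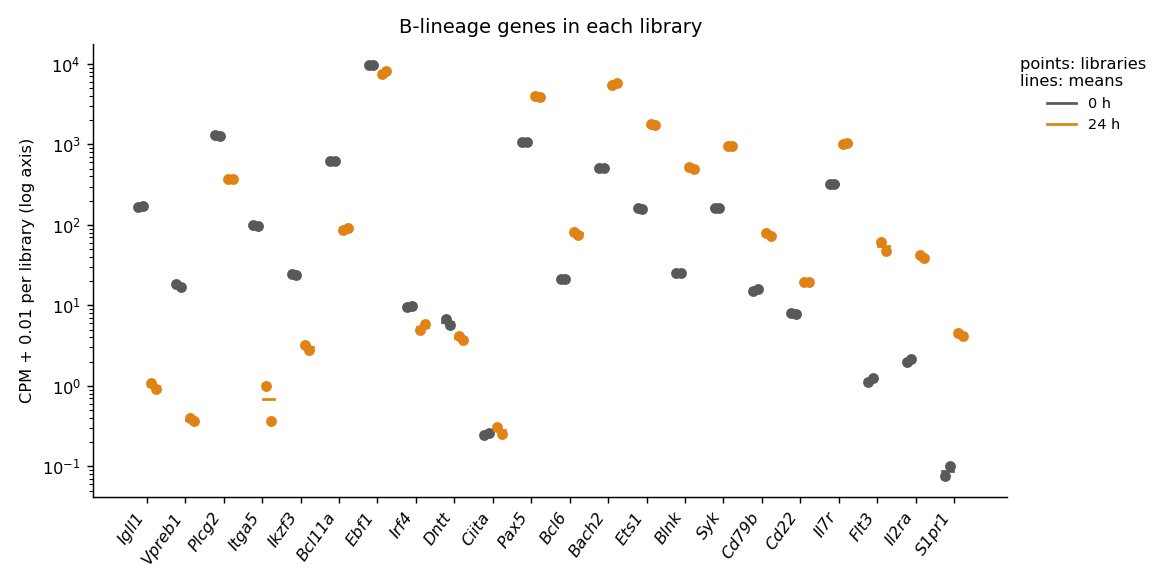
Level of 22 B lineage genes in each library, in CPM plus 0.01 on a log axis, with 0 h in grey and 24 h in orange and lines at the means. Genes from Igll1 to Bcl11a are lower at 24 h, Ebf1, Irf4, Dntt and Ciita are within 2-fold, and genes from Pax5 to S1pr1 are higher.

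The targeted gene and its family were also read. Ikzf1 stood at 4845 and 4838 CPM at 0 h and 9227 and 8380.2 CPM at 24 h, and the log2 fold change was 0.86 (SE 0.0385), past the adjusted p limit (adjusted p = 6.55e-15) but under 2-fold. Reads from the retroviral construct may count toward Ikzf1, and the construct is present at both times, so the value does not check the induction, which acts on the location of the protein. Ikzf3, Aiolos, a family member that pairs with IKZF1, stood at 24.8 and 24.0 CPM at 0 h and 3.19 and 2.80 CPM at 24 h, an 8.17-fold fall. Of 15 subunits of NuRD, the corepressor complex known to associate with IKZF1, 5 fell and 2 rose, 33.3% and 13.3% against 20.1% and 20% of all genes. Mbd2, its methyl-DNA reader, stood at 175 and 178 CPM at 0 h and 1044 and 1046 CPM at 24 h and rose by 5.92-fold, and Mta3 rose by 3.18-fold. Chd5 fell and stood at 3.56 and 2.86 CPM at 0 h and 0.477 and 0.434 CPM at 24 h, and Rbbp7, a histone-binding subunit, fell by 3.22-fold.

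Genes of interleukin-7 receptor signalling rose in 6 and fell in 2 of 12 cases. Socs1, an inhibitor of JAK kinases, stood at 0.151 and 0.158 CPM at 0 h and 2.83 and 2.55 CPM at 24 h, a 17.1-fold rise from a low level. Pim1, a kinase gene downstream of STAT5, stood at 8.12 and 8.80 CPM at 0 h and 51.6 and 49.0 CPM at 24 h, a 5.94-fold rise. Socs2 fell by 2.79-fold and Ptpn6, the phosphatase SHP-1, by 2.06-fold, a call that was lost without replicate 2 of 0 h (-0.99) or of 24 h (-0.95). Integrin and adhesion genes fell in 11 and rose in 6 of 30 cases, a falling share of 36.7% and a rising share equal to the 20% of all genes. Itga5 (GRCm38 chr15:103344286-103366763, minus strand), the alpha chain of the fibronectin receptor, stood at 99.3 and 98.0 CPM at 0 h and 0.984 and 0.353 CPM at 24 h, and its log2 fold change of -7.23 (SE 0.147) was a 150.1-fold fall with 33 and 13 counts left. Itgb5 fell by 5.43-fold. In the other direction Itgb3, the beta chain of the vitronectin receptor, stood at 2.42 and 2.25 CPM at 0 h and 56.6 and 43.3 CPM at 24 h, a 21.3-fold rise, and Itgax, CD11c, had 3 counts in both libraries at 0 h and 79 and 97 counts at 24 h.

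Interferon-stimulated genes rose in 16 and fell in 3 of 34 cases, with a median log2 fold change of 0.92. Gbp2, a guanylate-binding protein, stood at 0.302 and 0.248 CPM at 0 h and 9.04 and 7.30 CPM at 24 h, a 29.2-fold rise, and Oas2, which senses double-stranded RNA, rose by 16.5-fold to about 4 CPM. Bst2, tetherin, and Xaf1 fell by 4.44-fold and 3.28-fold. In the BCL2 family, 1 of 10 rose and 2 fell, shares at or under those of all genes, 20% and 20.1%. Bcl2, the survival gene, stood at 341 and 350.4 CPM at 0 h and 58.5 and 61.9 CPM at 24 h, a 5.74-fold fall, and Bmf, a pro-death member that binds BCL2, rose by 17.5-fold and stood at 0.151 and 0.158 CPM at 0 h and 2.39 and 3.09 CPM at 24 h. Bok fell by 4.75-fold. Autophagy and lysosome genes rose in 10 and fell in 1 of 27 cases, 37.0% and 3.70% against 20% and 20.1% of all genes. With library totals alone, 5 rose. Ulk2, a kinase that starts autophagy, stood at 49.2 and 49.3 CPM at 0 h and 169 and 173 CPM at 24 h, and Atg9a rose by 3.71-fold. Tfeb, a regulator of lysosome genes, fell and stood at 48.2 and 48.3 CPM at 0 h and 24.5 and 23.6 CPM at 24 h, and the log2 fold change was -1.01 (SE 0.104), close to the 2-fold limit and under it without replicate 2 of 24 h (-0.98).

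The 10 protein-coding genes with the largest fitted rises, among those averaging at least 1 CPM, were nearly silent at 0 h. For genes with 0 counts at 0 h, the fitted rise exceeds the lower bound given here. By these bounds, Gad1 and Gimap3 need not rank above genes with some counts at 0 h, such as S1pr1 (54.4-fold). Ms4a4a, of the CD20 family, had 0 counts at 0 h and 1353 and 1536 at 24 h, at least 619.8-fold higher. Slco1b2, an organic anion transporter known from liver, went from 0 to 917 and 958 counts, at least 403-fold higher. Gad1, the glutamate decarboxylase of neurons, and Gimap3, a GTPase of lymphocytes, had 0 counts at 0 h and were at least 47.5-fold and 39.9-fold higher. Adcy1, an adenylyl cyclase, had 2 counts in both libraries at 0 h and 2906 and 3217 counts at 24 h. Ugt3a1, a glycosyltransferase, had 12 and 11 counts at 0 h and 29947 and 32496 counts at 24 h, and Nyx had 5 and 7 counts at 0 h and 3794 and 3976 counts at 24 h. Gm8369, Gm11983 and Ramp3 had at most 1 count in each 0 h library and between 702 and 1128 counts in each 24 h library.

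The 10 that fell most had mean levels of at most 4.02 CPM at 24 h. Mrgpra1, a receptor known from sensory neurons, had 3084 and 3063 counts at 0 h and 1 and 2 counts at 24 h, and Ccr2, a chemokine receptor, had 1354 and 1291 counts at 0 h and 1 count in both libraries at 24 h. Kif19a, a kinesin, had 208 and 191 counts at 0 h and 1 and 0 counts at 24 h. Tmem119 stood at 41.1 and 40.2 CPM at 0 h and 0.179 and 0.217 CPM at 24 h. Spry4, an inhibitor of receptor tyrosine kinase signalling, stood at 52.2 and 51.6 CPM at 0 h and 0.358 and 0.407 CPM at 24 h and Tbx19, a T-box factor, at 45.9 and 49.0 CPM at 0 h and 0.388 and 0.597 CPM at 24 h. Ppargc1b, a coactivator of mitochondrial genes, stood at 251 and 252 CPM at 0 h and 3.79 and 4.26 CPM at 24 h, a 62.2-fold fall. Zan fell by 63.4-fold, and Igll1 and Itga5, described above, complete the 10.

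Few genes differed by more than 2-fold between the last 2 time points. Between 21 h and 24 h, 41 genes were called, 0.247% of those tested, with 16 higher and 25 lower at 24 h, while 5008 genes had an unadjusted p under 0.05. Of the genes named by the rule, Ccne1 was lower (log2 difference -1.23, adjusted p = 0.000118), and Ramp3, Gimap3 and Gm8369 were higher (1.54, 1.18 and 1.10). Small differences past the adjusted p limit, of any size, were found downward in 4.57% and upward in 4.06% of genes. In the mitosis list, 35 of 47 tested genes were lower at 24 h than at 21 h by this rule and 0 higher, with a median log2 difference of -0.46. In the DNA replication list, 26 of 47 were lower and 2 higher, with a median of -0.39, and 12 of 52 histone genes were lower. Of the 16 G1 cyclin, CDK and E2F genes, 8 were lower and 1 higher. Mki67 differed by -0.72, Tyms by -0.60, Mcm5 by -0.45 and E2f2 by -0.42 on the log2 scale. Ccnd3, which had risen since 0 h, was higher again by 0.63 (edgeR adjusted p = 4.07e-05), and Bcl2, which had fallen, was lower again by a log2 difference of -0.31 (edgeR adjusted p = 4.79e-05). Among B lineage genes, Pax5, Syk and Pim1 were higher at 24 h (0.27, 0.22 and 0.44), as was Irf4 (0.64), while Enpep was lower (-0.45). Of 29 B lineage transcription factors, 3 were higher and 3 lower than at 21 h. In the pre-BCR list, 3 of 20 were higher and 1 lower, and in the early progenitor list 2 of 12 were higher and 1 lower. Itgb3 and Jchain, both higher than at 0 h, were lower than at 21 h (-0.81 and -0.62). In the list of CDK inhibitors and quiescence genes, 1 of 21 differed, and none of the 75 ribosomal protein genes did. Foxo1, Bach2, Cdkn1b, Ccnd2, Cdk6, Igll1 and Il7r did not pass the limit, with log2 differences from -0.13 to 0.09.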

How the data were processed

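The authors sequenced rRNA-depleted, directional libraries of chromatin-associated RNA, aligned reads to mm10 (GRCm38) with nf-core/rnaseq and STAR, and used featureCounts to count exonic and intronic reads of each gene. The deposited values are raw counts, 1 column per library, without normalization. The annotation release and strand setting are not given in the sources used here. Molecular identifiers are not mentioned, so depth describes counting error only.

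Genes that reached 10 counts in 2 or more of the 20 libraries were tested with edgeR 4.0.16 in R 4.3.3 (TMM factors, quasi-likelihood F test, time point as a factor, all 20 libraries), with Benjamini-Hochberg adjustment over all genes tested. Calls required an adjusted p under 0.01 and a fold change above 2. Where a rise is given as at least a value, a floor of 3 counts per library replaced the time point without counts. Rankings, medians and counts by size used fitted values. GENCODE M21 gave symbols, positions and overlaps for 55154 of 56239 identifiers, and RefSeq gave promoter sequences. Replicates of a time point differed by more than sampling noise (chi-square per degree of freedom between 1.41 and 4.42). The fit was tested on simulated data.

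The genes named were, in each list, up to 2 called genes that rose and 2 that fell most at 1 CPM or more over the 4 libraries, the 10 protein-coding genes that rose and the 10 that fell most, a fixed set of regulators, and, added after values were seen, genes whose promoters are shown, Plcg2, 3 kappa segments and a few cell type markers. The comparison, lists and rule were chosen with earlier results of these data known. Lists are described by counts and medians, not tested. Alternatives were DESeq2 size factors, library totals, other filters, the replicate block, DESeq2 1.42.0, an adjusted p under 0.05, a test against a 2-fold change, a fit of the 4 libraries compared and leaving out each library. Added after seeing the data were blocks for 24 h against 21 h. A result that needs a withheld item is not reported here.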

Additional observations from a re-analysis of the deposited data

How the results depend on the processing

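The counts for 24 h against 0 h stayed within 1.5 times of the reported ones under every alternative run. Falling genes ranged from 2366 (test against a 2-fold change) to 4260 (library totals) and rising genes from 2248 (at least 10 counts in every library) to 3515 (adjusted p under 0.05). DESeq2 gave 3026 falling and 3135 rising. Without 1 library they were 3113 to 3196 and 3114 to 3133, and list members called, 410 of 710, were 394 to 403. Deviations of same-numbered libraries correlated at 0.0618 between 0 h and 24 h and at -0.109 between 21 h and 24 h (7876 genes), so the numbers were not taken to pair the samples. With the replicate block, 3328 genes fell and 3314 rose, and 34 were called for 24 h against 21 h. In a model of those 4 libraries, the block by number gave 54 and the crossed block 58. The 41 genes called for 24 h against 21 h became 70 with no filter, 14 with at least 10 counts in every library, 16 with DESeq2, 102 at an adjusted p under 0.05, 1 in a test against a 2-fold change and 23 to 29 without 1 library, lowest without replicate 1 of 24 h. The cause of these shifts was not tested. Of 1620 values of named genes, 16 lost and 1 gained a call, and 2 turned sign in genes not called: Ciita at -0.10 with library totals and Klf2 at -0.14 without replicate 2 of 0 h, against up to 1.18 without replicate 1 of 0 h. Of 910 list counts, 49 moved by over 1.5 times.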

Other observations

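Several classes of RNA outside the protein-coding genes differed in their share of called genes. Of 1181 lincRNA genes tested, 31.2% rose and 17.9% fell, with a median log2 fold change of 0.37. Among 13028 protein-coding genes, 17.4% rose and 21.0% fell, with a median of -0.07. Antisense genes rose in 26.9% and fell in 15.0% of 632 cases, and bidirectional promoter lncRNA genes rose in 36.4% and fell in 11.1% of 99. Protein-coding genes that lie inside genes of the opposite strand were nearly all listed at 0. Counts of antisense genes may therefore leave out the stretches that overlap their partners, which was not tested.

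Mitochondrially encoded ribosomal RNAs were higher in the 24 h libraries. All libraries were of chromatin-associated RNA depleted of rRNA, and whether depletion or fractionation differed between the times was not tested. The large subunit RNA mt-Rnr2 stood at 874 and 914 CPM at 0 h and 7460 and 7939 CPM at 24 h, with a log2 fold change of 3.11, and the small subunit RNA mt-Rnr1 had a log2 fold change of 3.36. The messenger RNA mt-Co1 stood at 79.5 and 79.1 CPM at 0 h and 258 and 283 CPM at 24 h. At 21 h, mitochondrial RNA took 0.955% and 0.732% of counts.

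Genes chosen after their values were seen include Car12, a carbonic anhydrase that differed between 21 h (49.2 and 51.3 CPM) and 24 h (155 and 157 CPM) with a log2 difference of 1.63, and Adamts13, whose 24 h libraries lay far apart at 19.4 and 4.40 CPM.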
